A study of Sus scrofa with 18 samples.

Results

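Tumours of a genetically modified pig were compared with normal tissue of wild-type pigs at 2 tissue labels, scrotum and mouth, and the question for each gene was whether the tumour effect differed between the labels. The measure was the interaction, (DIK scrotum minus WT scrotum) minus (DIK mouth minus WT mouth), on the log2 scale of normalised read counts. It used 12 of the 18 messenger RNA libraries of the series, 3 in each of 4 groups, and 12895 of 27339 genes passed the low-count filter and were tested. A positive interaction means that the difference between tumour and normal tissue was higher at the scrotum label. The same number can be split in another way, as the tumour side (DIK scrotum minus DIK mouth) minus the normal side (WT scrotum minus WT mouth). The split says in which libraries the interaction arose.

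The DIK scrotum and DIK mouth groups were tumour tissue taken from those sites, and the WT scrotum and WT mouth groups were normal tissue of wild-type pigs with the same labels. DIK is the study's knock-in line, which carries elements of the Tet-on system, in which doxycycline switches on a gene, and of phiC31 integrase, an enzyme that recombines DNA at its own sites. No source used here gives the gene that was switched on, its promoter or the cell type in which it acts. Doxycycline was given to DIK and WT pigs alike when they were 7 months old, and sampling followed 8 months after that. A single founder supplied both DIK groups, and how many WT pigs were sampled is not stated. All p-values are thus set by the variation among these libraries, part or all of which may be technical.

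As background, stratified squamous epithelium covers the skin and the mouth: basal cells divide, and their daughters move outward and make keratins and a cross-linked envelope, of a dry type in epidermis and of a moist type in oral mucosa. Under it lie connective tissue, glands and muscle. The muscle of lips and tongue is skeletal and rich in sarcomeres and mitochondria, and scrotal skin holds a sheet of smooth muscle, the dartos. HOX genes keep a record of position along the body, with the last groups of each cluster used in the hind trunk, limbs and genital region and not in the head.

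Total counts ran from 2024959 to 4792168 over the 12 libraries, so that 3 counts correspond to between 0.483 and 1.88 CPM (CPM, in which counts are divided by the TMM-scaled size of the library). The labels were checked against position genes. HOXA10, a posterior HOX gene, had 0, 0 and 0 CPM in DIK scrotum, 0.42, 0 and 0 CPM in WT scrotum, 3.16, 1.94 and 5.06 CPM in DIK mouth and 14.8, 26.5 and 24.4 CPM in WT mouth. It was thus counted mainly in the mouth-labelled libraries of both genotypes, and its interaction was 0.82 ± 1.72 (adjusted p = 0.837). The other posterior HOX genes of the list were too low to test, and their sum with it was 1.68, 2.5 and 0 CPM in DIK scrotum, 1.68, 4.89 and 0 CPM in WT scrotum, 6.33, 5.34 and 9.06 CPM in DIK mouth and 18.5, 34.3 and 34.6 CPM in WT mouth. HOXA10 and this sum go against the labels in the same direction in tumour and normal tissue. HOXC13, which is also on the hair follicle list, went the other way in normal tissue, with 20 counts in WT scrotum and 0 in WT mouth. Its WT scrotum libraries had 0.839, 3.67 and 0 CPM, so most of these counts came from replicate 2. HOXC13 had 7 counts in DIK scrotum and 13 in DIK mouth. Of 17 tested face and jaw patterning genes, 9 were higher and 2 lower on the normal side, against 13.7% and 9.29% of all genes. On the tumour side 3 were higher and 0 lower, against 1.83% and 1.05%. Of 10 tested hindlimb, genital and trunk genes, 3 were higher and 5 lower on the normal side. On the tumour side 1 of these was higher and 2 lower. Of 6 tested middle HOX genes, 5 were lower on the normal side and 2 on the tumour side, with 0 higher. The groups are therefore called scrotum-labelled and mouth-labelled. Exchanging the labels in both genotypes would turn the sign of every interaction below. The muscle content of the normal tissue also differed between the labels. Skeletal muscle genes took at most 0.00716% of the counts in any DIK library of these labels, against 33.3%, 16.4% and 29.8% in WT scrotum and 0.204%, 0.536% and 0.452% in WT mouth. Smooth muscle genes took 4.13%, 2.33% and 6.61% in WT scrotum, against 14.4%, 23.2% and 21.7% in WT mouth.

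Among the normal libraries, 1 at each label stood apart. Correlations between libraries of 1 group ran from 0.945 to 0.968 in DIK scrotum, from 0.763 to 0.932 in WT scrotum, from 0.966 to 0.97 in DIK mouth and from 0.868 to 0.959 in WT mouth. WT scrotum replicate 2 held most of the epidermal signal of its group: the summed epidermis type keratins were 73.4, 46207 and 51.4 CPM in the 3 WT scrotum libraries. Replicates 1 and 3 of that group also differed from each other. Over the WT scrotum libraries the hair follicle list summed to 1422, 2159 and 6.52 CPM. The Schwann cell and nerve list summed to 187, 47.7 and 552 CPM. WT mouth replicate 1 held most of the gland signal: the salivary and mucous gland list summed to 6949, 177 and 171 CPM and the sweat and sebaceous gland list to 4505, 77.4 and 34.1 CPM in the 3 WT mouth libraries. Many of the values below are also given without these libraries. In bulk tissue, fewer cells of a type and less RNA per cell cannot be told apart.

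The tumour effect differed between the labels for 1690 genes, 13.1% of those tested (edgeR quasi-likelihood test, Benjamini-Hochberg adjusted p under 0.05), and 3399 genes had an unadjusted p under 0.05. It was higher at the scrotum label for 646 genes (5.01%) and lower for 1044 (8.1%). Scaling by library size alone gave 737 higher and 782 lower, a share of 48.5% higher in place of 38.2%, with a median over all genes of 0.09 in place of -0.05. More genes differed between the labels in normal tissue than in tumours. The tumour side on its own was called for 372 genes (2.88%; 1.83% higher and 1.05% lower) and the normal side for 2970 (23%; 13.7% higher and 9.29% lower).

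By these calls, 1278 of the 1690 genes (75.6%) arose in the normal libraries, 153 (9.05%) in the tumour libraries, 43 (2.54%) in both, and 216 (12.8%) had neither side called. The share of the interaction carried by the tumour side had a median of 24.3%. It was 15.5% for the genes of the normal class, 85.2% for those of the tumour class and 53.4% for those called on both sides. A call on 1 side does not show that the sides differ in size. A separate test of the size found the tumour side larger for 71 genes and the normal side larger for 553, and 1066 could not be told apart. This test, of the sum of the sides, was called higher for 7.62% and lower for 4.26% of all genes tested (11.9% in all). Higher interactions held 90 tumour-class genes of 646 (13.9%), and lower ones 63 of 1044 (6.03%). The sides had opposite signs in 81.8% of the called genes and in 50.3% of all genes tested, a difference that the definition of the interaction favours.

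**Figure D1:**
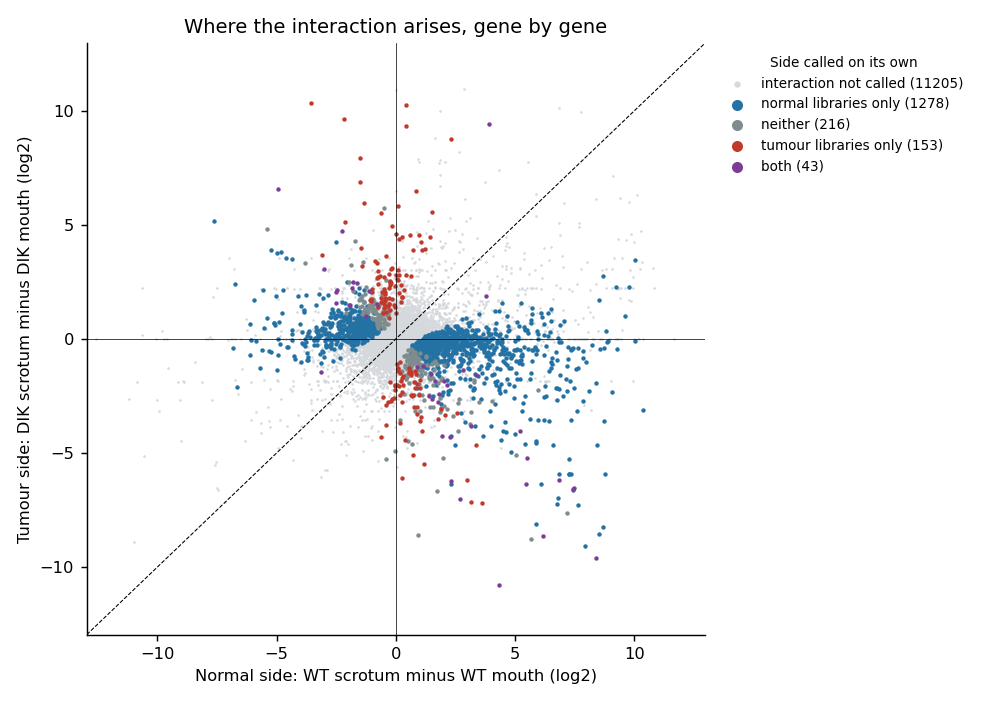
Each point is 1 of the 12895 genes tested, with the normal side (WT scrotum minus WT mouth, log2) across and the tumour side (DIK scrotum minus DIK mouth, log2) up, coloured by the side that was called on its own among the 1690 genes called in the interaction. The dashed line marks no interaction: most coloured points lie along the horizontal axis, where the 1278 genes of the normal class are, and the 153 genes of the tumour class lie along the vertical axis.

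Read as tumour effects at each label, the differences were mostly a change at 1 label with no call at the other. DIK minus WT on its own was called for 5607 genes (43.5%) at the scrotum label and for 6054 (46.9%) at the mouth label. Among the higher interactions, 262 genes were lower in tumours at the mouth label with no call at the scrotum label, 199 were higher at the scrotum label with no call at the mouth label, and 62 were higher at the scrotum label and lower at the mouth label. Another 59 were lower and 52 higher at both labels, and 12 were called at neither. Among the lower interactions, 396 genes were lower in tumours at the scrotum label only by the calls, 334 were higher at the mouth label only by the calls, and 149 were lower at the scrotum label and higher at the mouth label. Another 92 were lower and 67 higher at both labels, and 6 were called at neither.

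The calls were repeated without the libraries that stood apart. Without WT scrotum replicate 2, 1758 genes were called and 1373 of the 1690 (81.2%) were kept. The tumour side was then called for 742 genes (5.75%), and the classes held 263 tumour, 1254 normal, 70 both and 171 neither. Of the genes of the normal class 37 moved to the tumour class. Without WT mouth replicate 1, 1813 genes were called, 1444 (85.4%) were kept, and the classes held 171 tumour, 1326 normal, 58 both and 258 neither. Without both libraries 2086 genes were called, 1404 of them among the 1690, and 299 were of the tumour class. None of the kept genes changed sign in these 3 fits. In all, 1269 genes were called with the same sign with all libraries, without WT scrotum replicate 2 and without WT mouth replicate 1. Of these, 1050 kept their class: 881 normal, 109 tumour, 20 both and 40 neither.

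**Figure D2:**
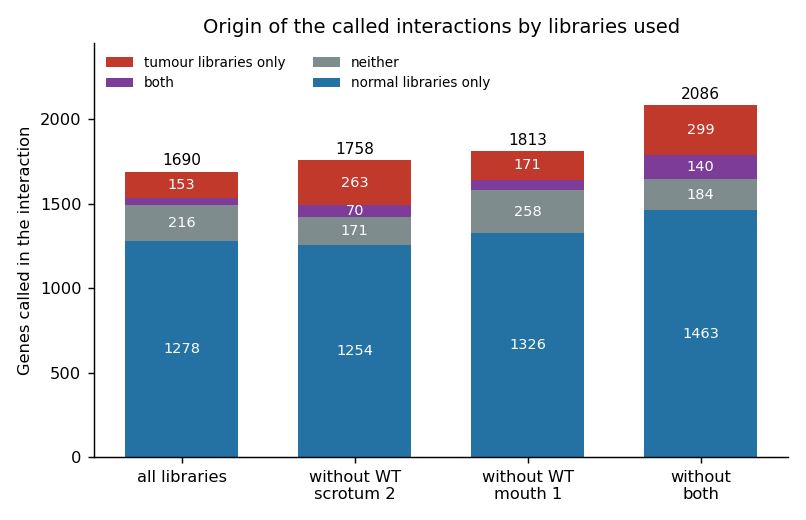
Bars give the number of genes called in the interaction, stacked by the side called on its own, with all libraries and without the 1 or 2 normal libraries that stood apart. The normal class stays the largest, between 1254 and 1463 genes, and the tumour class holds 153 genes with all libraries, 263 without WT scrotum replicate 2 and 299 without both.

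Skeletal muscle genes had lower interactions that arose in the normal libraries. Of 37 listed genes 32 passed the filter, of which 11 had a lower interaction and 0 a higher one, against 8.1% and 5.01% of all genes, and all 11 were of the normal class. The median interaction of the list was -5.97, or -7.30 with the 16 genes that have a group at 0 counts set to their bound, beside -0.05 for all genes tested. DESeq2 called 29 members and limma-voom 30. The summed level was 26, 36.8 and 90.6 CPM in DIK scrotum, 414052, 155177 and 358543 CPM in WT scrotum, 8.86, 14.8 and 13.9 CPM in DIK mouth and 1501, 4478 and 3932 CPM in WT mouth. The tumours of both labels held next to none of these transcripts, and the WT scrotum libraries held far more than the WT mouth libraries.

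TNNI2, the fast troponin inhibitory subunit, had 1.68, 0 and 3.75 CPM in DIK scrotum, 4916, 2202 and 4067 CPM in WT scrotum, 0, 3.16 and 1.87 CPM in DIK mouth and 2.58, 4.71 and 3.15 CPM in WT mouth. Only the WT scrotum libraries stood above 5 CPM. Its interaction was -10.14 ± 1.25 (± SE, as for every log2 value below, adjusted p = 7.11e-05), with a tumour side of -0.09 ± 0.89 and a normal side of 10.05 (adjusted p = 1.18e-06). The tumour effect was -11.13 ± 1.07 at the scrotum label and -0.99 ± 0.79 at the mouth label, where it was not called. TTN, the giant spring protein titin, had 2.24, 3.58 and 6.88 CPM in DIK scrotum, 46785, 13117 and 27026 CPM in WT scrotum, 0.949, 0.729 and 0.8 CPM in DIK mouth and 19.96, 39.6 and 39.6 CPM in WT mouth. Here the tumours were lower at both labels, with effects of -12.79 ± 0.87 at the scrotum label and -5.27 ± 0.69 at the mouth label, and the interaction was -7.52 ± 0.97 (adjusted p = 7.33e-05). CASQ1, the calcium store protein of fast muscle, and ENO3, the muscle enolase, were likewise lower in tumours at both labels, with interactions of -6.22 ± 0.83 and -5.57 ± 0.94. TBX15, a T-box factor of limb and trunk muscle and skin, had 0 to 0.358 CPM in DIK scrotum, 46.3 to 175 CPM in WT scrotum, 0.316 to 1.07 CPM in DIK mouth and 13 to 21.1 CPM in WT mouth (interaction -4.07 ± 1.04, adjusted p = 0.0139), and its call was lost without DIK mouth replicate 3. Its fitted value rests on a group at or under 3 counts. BAG3, a chaperone partner that clears damaged muscle protein, had an interaction of -1.94 ± 0.41 (adjusted p = 0.00386).

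Respiratory chain genes also had lower interactions that arose in the normal libraries, and a link to the muscle content was not tested. Subunits of the respiratory chain encoded in the nucleus were lower in the interaction for 11 of 11 tested members of 22 listed, against 8.1% of all genes. All 11 were of the normal class, and the list median was -3.06, beside -0.05 for all genes tested. DESeq2 and limma-voom called the same number, and all 11 were called without WT scrotum replicate 2 and without WT mouth replicate 1. Their summed level was 1173, 1217 and 1176 CPM in DIK scrotum, 9535, 3307 and 7209.6 CPM in WT scrotum, 1337, 1149 and 1215 CPM in DIK mouth and 889, 639 and 694 CPM in WT mouth. NDUFA4, which sits in complex IV, had 93.3, 95.5 and 97.5 CPM in DIK scrotum, 1652, 565 and 1193 CPM in WT scrotum, 145, 96.4 and 97.8 CPM in DIK mouth and 103, 63.1 and 86.6 CPM in WT mouth. Every WT scrotum library was above every library of the other groups, and those lay between 63.1 and 145 CPM. Its interaction was -4.00 ± 0.52 (adjusted p = 7.66e-05), the tumour effect was -3.57 ± 0.40 at the scrotum label and 0.43 ± 0.36 at the mouth label, and the tumour side was -0.25 ± 0.36. NDUFV1, which binds NADH in complex I, had an interaction of -2.97 ± 0.42. COX7A1, the muscle form of a complex IV subunit, had 3.07 to 5.01 CPM in DIK scrotum, 407 to 1260.5 CPM in WT scrotum, 0.633 to 1.87 CPM in DIK mouth and 14 to 19.7 CPM in WT mouth, and an interaction of -4.33 ± 0.63. Without WT scrotum replicate 2 the tumour side of COX7A1 was also called (1.37, adjusted p = 0.0396).

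Genes of sugar and fat metabolism were also called. In the hypoxia and glycolysis list 2 of 21 genes had a higher and 6 a lower interaction, against 5.01% and 8.1% of all genes, with a median of -0.44. The classes were 2 tumour, 5 normal and 1 neither. HK2, the hexokinase of muscle and of many tumours, had 86.9, 66.1 and 41.3 CPM in DIK scrotum, 132, 28.1 and 96.8 CPM in WT scrotum, 61.7, 61.7 and 42.6 CPM in DIK mouth and 2.9, 0.523 and 0.262 CPM in WT mouth. It was low in the WT mouth libraries, and the ranges of the other 3 groups overlapped. Tumours were therefore higher than normal tissue at the mouth label, by 5.35 ± 0.77, and not called at the scrotum label (-0.39 ± 0.60, adjusted p = 0.621), and the interaction was -5.74 ± 0.96 (adjusted p = 0.00114). EGLN3, an oxygen-sensing hydroxylase, had 30.6 to 61.5 CPM in DIK scrotum, 13 to 23.6 CPM in WT scrotum, 31.2 to 48.3 CPM in DIK mouth and 0.525 to 2.41 CPM in WT mouth, with tumour effects of 1.27 ± 0.36 and 4.71 ± 0.44 at the scrotum and mouth labels. GAPDH, the glycolytic dehydrogenase often used as a loading control, had an interaction of -2.39 ± 0.53 (adjusted p = 0.0058): its level was 3028 to 3719.8 CPM in DIK scrotum, 9505 to 18643 CPM in WT scrotum, 2116 to 2994 CPM in DIK mouth and 1390.3 to 2565 CPM in WT mouth. The adipocyte list had 0 higher and 5 lower of 14 tested, against 5.01% and 8.1% of all genes, with a median of -2.51. GPD1, glycerol phosphate dehydrogenase, had an interaction of -6.76 ± 0.87, CD36, a fatty acid transporter, of -5.07 ± 1.12, and PNPLA2, a triglyceride lipase, of -2.64 ± 0.42. ADIPOQ, the defining adipocyte hormone, was not called in the interaction. The summed adipocyte level was 1973, 621 and 1716 CPM in the WT scrotum libraries. PRRX1, a homeobox factor of mesenchyme, had an interaction of -2.31 ± 0.57 and more than 59 CPM in the WT scrotum libraries alone.

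Smooth muscle genes showed the opposite picture, again in the normal libraries. Of 21 genes tested 7 had a higher and 1 a lower interaction, against 5.01% and 8.1% of all genes, all of the normal class, with a median of 2.36 (3.05 with bounds) beside -0.05 for all genes. DESeq2 called 12 and limma-voom 13. The list summed to 4607, 6293 and 6898 CPM in DIK scrotum, 51308, 22060.5 and 79478 CPM in WT scrotum, 4460.0, 5131 and 4121 CPM in DIK mouth and 105665, 193707 and 189012 CPM in WT mouth. The tumour groups overlapped, and the 3 WT mouth libraries were the highest.

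MYLK, the kinase that starts smooth muscle contraction, had 15.1, 11.4 and 15 CPM in DIK scrotum, 30.2, 12 and 59.4 CPM in WT scrotum, 15.2, 18.9 and 21.1 CPM in DIK mouth and 1691, 4954 and 4809 CPM in WT mouth. The lowest WT mouth library was far above every other library. The tumour effect was -1.29 ± 0.50 (adjusted p = 0.0431) at the scrotum label and -7.69 ± 0.64 at the mouth label, which gave an interaction of 6.40 ± 0.74 (adjusted p = 3.24e-05). The light chain that this kinase phosphorylates, MYL9, and the actin-binding protein TAGLN had interactions of 6.05 ± 0.74 and 4.91 ± 0.76. SMTN, smoothelin, had 17.7 to 39.3 CPM in every library outside WT mouth, and 164, 428 and 486 CPM in WT mouth. Its tumour effect was 0.26 ± 0.36 at the scrotum label, which was not called, and -3.42 ± 0.39 at the mouth label. TES, testin, a LIM protein of actin fibres, had 46.4, 58.6 and 34.4 CPM in DIK scrotum, 4.2, 7.34 and 8.78 CPM in WT scrotum, 23.1, 21.4 and 29.1 CPM in DIK mouth and 153, 412 and 322 CPM in WT mouth. It was thus higher in tumours at the scrotum label (2.75 ± 0.42) and lower in tumours at the mouth label (-3.59 ± 0.42), and its interaction of 6.34 ± 0.59 had an adjusted p of 6.38e-06. GPR20, an orphan receptor, had 5 counts in DIK scrotum, 2 in WT scrotum, 1 in DIK mouth and 345 in WT mouth. In DIK mouth it was lower than in WT mouth by a ratio of 241 (95% counting interval 43.0 to 9561).

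The fibroblast and matrix list had 4 higher and 0 lower of 28 tested, 4 called in all, against 13.1% of all genes called, a share near that over all genes. Its median of 0.32 was -0.02 without WT scrotum replicate 2, and the fibrillar collagens and decorin were not called. TNC, the matrix protein tenascin C, had 28.8, 29 and 36.3 CPM in DIK scrotum, 8.39, 4.08 and 14.5 CPM in WT scrotum, 75.9, 66.8 and 85.8 CPM in DIK mouth and 143, 629 and 616 CPM in WT mouth. Its levels overlapped in no pair of groups, in the order WT scrotum, DIK scrotum, DIK mouth and WT mouth from low to high. The interaction was 4.40 ± 0.67 (adjusted p = 0.000328). Without WT mouth replicate 1 the tumour side was called as well (-1.30, adjusted p = 0.0382). MFAP4, a microfibril protein, had an interaction of 3.46 ± 0.73. POSTN, periostin, had 39.9, 214 and 31.4 CPM in the WT scrotum libraries and 488 to 758 CPM in WT mouth, with an interaction of 2.49 ± 0.80 (adjusted p = 0.0481) that was 3.91 (adjusted p = 2.8e-05) without WT scrotum replicate 2. COL12A1, a collagen that sits on fibril surfaces, had 61.8, 66.9 and 51.3 CPM in DIK scrotum, 10.1, 16.1 and 13 CPM in WT scrotum, 81.9, 63.2 and 110.4 CPM in DIK mouth and 45.1, 41.1 and 42.5 CPM in WT mouth. Its tumour groups were higher than normal tissue at both labels (2.18 ± 0.29 at the scrotum label and 0.99 ± 0.27 at the mouth label). Its interaction was 1.20 ± 0.39 (adjusted p = 0.0482) and was not called without WT mouth replicate 1 (adjusted p = 0.0577). Each of these calls, of POSTN and COL12A1, was lost in 10 of the 12 fits that left out 1 library.

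**Figure D3:**
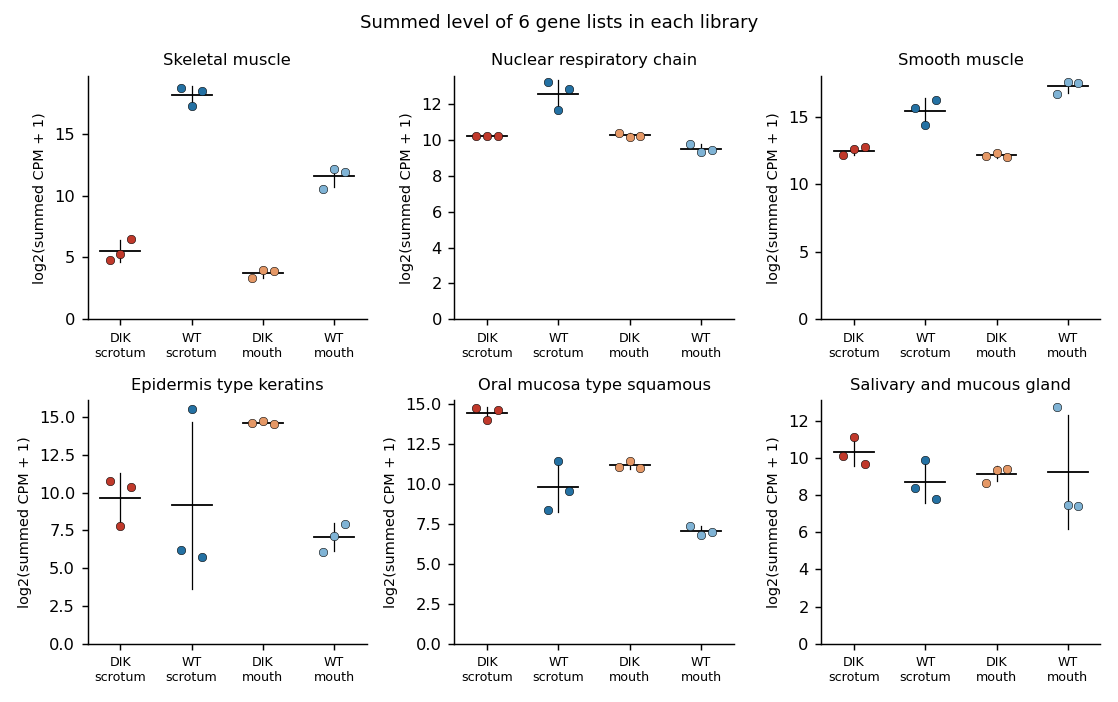
Points are libraries, bars the mean and lines 1 SD of log2(summed CPM + 1) for 6 gene lists in the 4 groups. Skeletal muscle and respiratory chain sums are highest in WT scrotum and smooth muscle sums in WT mouth; 1 WT scrotum library carries the epidermis type keratins and 1 WT mouth library the gland genes.

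Epidermal differentiation genes had lower interactions of large size, and most of these rested on 1 library. In the cornified envelope and late differentiation list 25 of 29 genes passed the filter. Of these, 1 had a higher and 11 a lower interaction, against 5.01% and 8.1% of all genes (1 tumour, 8 normal, 2 both and 1 neither). The list median was -6.58, beside -0.05 for all genes tested. All 4 tested epidermis type keratins were lower, against 8.1% of all genes, all by the normal class, with a median of -11.75. Without WT scrotum replicate 2, the cornified list had 2 higher and 5 lower, all 7 of the tumour class, with a median of -1.46, and 1 of the 4 keratins was called, on the tumour side. In that fit 754 of all 12895 genes tested were higher and 1004 lower. The summed cornified level was 17277, 18898 and 24055 CPM in DIK scrotum, 161, 9754 and 129.9 CPM in WT scrotum, 20289.8, 28264 and 18593 CPM in DIK mouth and 97, 113 and 121 CPM in WT mouth.

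KRT1, the main keratin of suprabasal epidermis, had 382, 39.3 and 311 CPM in DIK scrotum, 23.9, 25243 and 12.5 CPM in WT scrotum, 14686, 15707 and 14290.0 CPM in DIK mouth and 23.3, 49.2 and 83.7 CPM in WT mouth. It was high in all 3 DIK mouth libraries and in WT scrotum replicate 2, and lower in the DIK scrotum libraries. With all libraries the interaction was -13.27 ± 3.18 (adjusted p = 0.0148), with the normal side called (7.34 ± 2.32) and the tumour side not (-5.93 ± 2.18, adjusted p = 0.201). Without WT scrotum replicate 2 the interaction was -4.41 (adjusted p = 0.0422), the normal side -1.52 and the tumour side -5.93 (adjusted p = 0.00337), so the gene changed class. Without both libraries that stood apart it was not called (adjusted p = 0.097). Its partner KRT10 had an interaction of -9.50 ± 2.54 and was not called without WT scrotum replicate 2 (-2.42, adjusted p = 0.151), though its tumour side then was (-3.56, adjusted p = 0.0096). KRT2, a keratin of late epidermis, had 0.559, 0.715 and 0.625 CPM in DIK scrotum, 1.68, 3917 and 1.76 CPM in WT scrotum, 2.53, 1.46 and 3.47 CPM in DIK mouth and 1.29, 4.71 and 5.77 CPM in WT mouth, almost all of it in WT scrotum replicate 2, and its interaction of -10.31 ± 3.18 was -0.78 without that library (adjusted p = 0.732). The call of KRT2 was lost in 10 and that of KRT10 in 7 of the 12 fits that left out 1 library. KRT77, an epidermal keratin, had 1 count in DIK scrotum, 354 in WT scrotum, 111 in DIK mouth and 2 in WT mouth, and was not called without that library (adjusted p = 0.126).

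A group of late differentiation genes stayed called without WT scrotum replicate 2 and then belonged to the tumour side. ASPRV1, a skin protease that processes filaggrin, had 23.2, 23.6 and 33.8 CPM in DIK scrotum, 16.8, 3548 and 13 CPM in WT scrotum, 1719, 3266 and 1682 CPM in DIK mouth and 15.6, 13.2 and 23.9 CPM in WT mouth. The DIK mouth libraries were above the DIK scrotum libraries by a wide margin, and the WT libraries other than WT scrotum replicate 2 were low at both labels. The interaction was -12.46 ± 2.37 (adjusted p = 0.00386) with all libraries and -6.14 (adjusted p = 1.48e-06) without that library, when the normal side was -0.24 and the tumour side -6.38. KLK5, a protease of skin shedding, had -12.77 ± 2.43 and -6.34 in these 2 fits, CASP14, a caspase of cornification, -11.81 ± 2.15 and -6.10, and CALML5, a calcium-binding protein of skin, -13.22 ± 3.02 and -4.46. CALML5 was not called without both libraries that stood apart (adjusted p = 0.0555). DSC1, a desmosomal cadherin of upper epidermis, had 3 counts in DIK scrotum, 365 in WT scrotum, 1813 in DIK mouth and 5 in WT mouth. DIK scrotum was lower than DIK mouth by a ratio of 437 (95% counting interval 149 to 2121). HRNR, hornerin, a filaggrin-like protein, had 2 counts in DIK scrotum and 1679 in DIK mouth, a ratio of 607 (95% counting interval 168 to 5017). Interactions without that library were -10.41 (adjusted p = 5.92e-05) for DSC1 and -8.62 (adjusted p = 0.023) for HRNR. As the fitted values of both genes rest on a group at or under 3 counts, their size is set in part by the prior count of the fit.

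Other epidermal genes lost their call. The proteases KLK7 and KLK8 had interactions of -10.17 ± 2.42 and -11.23 ± 2.45 with all libraries, and -3.99 (adjusted p = 0.0953) and -2.80 (adjusted p = 0.406) without WT scrotum replicate 2, though the tumour side of each was then called (-5.11 and -4.65). CCL27, a chemokine of keratinocytes that draws T cells to skin, had 2.79, 1.43 and 0.625 CPM in DIK scrotum, 0, 11.2 and 0 CPM in WT scrotum, 293, 282 and 237 CPM in DIK mouth and 0.483, 0.349 and 0 CPM in WT mouth. All of its WT scrotum counts came from replicate 2, and without that library the interaction of -10.81 ± 1.90 became -3.88 with adjusted p = 0.982, while the tumour side stayed at -7.19 (adjusted p = 1.34e-05). KLK6, a related protease, reversed: its interaction was -4.60 ± 1.33 (adjusted p = 0.0314) with all libraries and 1.45 (adjusted p = 0.568) without WT scrotum replicate 2. Its WT scrotum libraries had 0, 6.32 and 0 CPM, so without replicate 2 that group was at 0 counts. The size of the fitted value there is set in part by the prior count of the fit. The tumour side of KLK6 was -3.58 in both fits. Its level was 124, 231 and 203 CPM in DIK scrotum and 1972, 3334 and 1365 CPM in DIK mouth, which did not overlap, and at most 6.32 CPM in any WT library.

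The basal keratinocyte list had 0 higher and 2 lower of 15 tested, DSC3 and TP63, against 5.01% and 8.1% of all genes, a share near that over all genes. Its median of -1.04 was 0.70 without WT scrotum replicate 2, where 1 gene was lower, so its sign turned. TP63, the master factor of squamous epithelium, had 52, 47.9 and 44.4 CPM in DIK scrotum, 9.65, 37.9 and 5.27 CPM in WT scrotum, 81, 55.9 and 66.4 CPM in DIK mouth and 1.77, 0 and 0.262 CPM in WT mouth. The tumour side was not called (-0.49 ± 0.58), and the WT mouth libraries were at or near 0. The interaction of -5.03 ± 0.99 (adjusted p = 0.00338) was -3.72 (adjusted p = 0.00135) without WT scrotum replicate 2 and stayed in the normal class. DSC3, a desmosomal cadherin of lower layers, had -6.26 ± 1.71 and was not called without that library (adjusted p = 0.0832). GJB6, a connexin of gap junctions, had -5.57 ± 1.48 and was lost without either of the libraries that stood apart, with adjusted p = 0.0521 and 0.0501. SERPINB2, a protease inhibitor of stressed keratinocytes, had -7.52 ± 1.82 with all libraries and -3.31 without WT scrotum replicate 2, and FOXN1, a factor of hair follicles and thymus, -6.51 ± 1.29 and -4.61, all called. The summed basal keratinocyte level was 45309 to 65583 CPM in DIK scrotum, 225 to 13882 CPM in WT scrotum, 43688 to 52715 CPM in DIK mouth and 300.3 to 1771 CPM in WT mouth. Of 4 tested melanocyte genes 0 were higher and 2 lower, against 5.01% and 8.1% of all genes. PMEL, a pigment granule protein, had 0.559, 1.43 and 1.88 CPM in DIK scrotum, 62.1, 104 and 1.5 CPM in WT scrotum, 37, 45.7 and 30.1 CPM in DIK mouth and 1.29, 1.57 and 3.15 CPM in WT mouth, and its interaction of -9.81 ± 1.74 (adjusted p = 0.00256) was called without either library that stood apart. TYRP1, an enzyme of pigment synthesis, had 0 counts in DIK scrotum and WT mouth, 41 in WT scrotum and 46 in DIK mouth. It was at least 9.66-fold lower in DIK scrotum than in WT scrotum and at least 21.9-fold higher in DIK mouth than in WT mouth, against a floor of 3 counts over the group.

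In a smaller set of genes the interaction arose in the tumour libraries. CLU, clusterin, a secreted chaperone, had 1172, 1739 and 663 CPM in DIK scrotum, 120.4, 80.7 and 262 CPM in WT scrotum, 22.5, 31.6 and 24.5 CPM in DIK mouth and 203, 254 and 262 CPM in WT mouth. DIK scrotum was the highest group and DIK mouth the lowest, with no overlap between any DIK and WT libraries of the same label. The tumour effect was 2.95 ± 0.41 at the scrotum label and -3.19 ± 0.42 at the mouth label, the tumour side 5.50 ± 0.47, the normal side -0.63 ± 0.38 (adjusted p = 0.264) and the interaction 6.14 ± 0.59 (adjusted p = 7.49e-06). Here the tumour side was larger than the normal side by the test of size. Without both libraries that stood apart the interaction had an adjusted p of 1.85e-08. FMO2, a flavin monooxygenase, had 56.2, 18.2 and 53.1 CPM in DIK scrotum, 10.5, 12.2 and 5.27 CPM in WT scrotum, 0, 0 and 0 CPM in DIK mouth and 10.8, 5.4 and 4.2 CPM in WT mouth. All 3 DIK mouth libraries were at 0 counts. DIK scrotum was at least 155-fold higher than DIK mouth, and DIK mouth was at least 26.6-fold lower than WT mouth, against a floor of 3 counts over the group. C8H4orf26, whose human counterpart is an enamel matrix phosphoprotein, had 762, 1439 and 569 CPM in DIK scrotum and at most 2.92 CPM in any other library, and an interaction of 8.92 ± 1.72 (adjusted p = 0.00252) that was not called without both libraries that stood apart (adjusted p = 0.0897).

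Of the immune genes named, FCMR, CD68 and CXCL2 were of the tumour class. FCMR, the receptor for IgM, had 32.1, 58.6 and 42.5 CPM in DIK scrotum, 5.45, 1.83 and 2.76 CPM in WT scrotum, 0.633, 0.486 and 0.267 CPM in DIK mouth and 1.45, 1.05 and 2.89 CPM in WT mouth, and an interaction of 5.65 ± 0.95 (adjusted p = 0.000703). CD68, a lysosomal protein best known from macrophages, had 75.7, 154 and 45 CPM in DIK scrotum, 5.45, 6.32 and 17.1 CPM in WT scrotum, 14.6, 13.4 and 13.3 CPM in DIK mouth and 12.6, 14.3 and 19.7 CPM in WT mouth. Each DIK scrotum library was above all others, and the tumour effect was 3.24 ± 0.44 at the scrotum label and -0.17 ± 0.42 at the mouth label. CD68 was the only 1 of 12 tested macrophage genes called in the interaction (8.33%, against 13.1% of all genes), a share not above that over all genes. The summed macrophage level was 220.2, 386 and 187 CPM in DIK scrotum, 132, 737 and 304 CPM in WT scrotum, 232, 430.0 and 371 CPM in DIK mouth and 451, 197 and 282 CPM in WT mouth. CXCL2, a chemokine that draws neutrophils, had 116, 153 and 46.9 CPM in DIK scrotum, 0 to 0.502 CPM in WT scrotum, 0.486 to 5.33 CPM in DIK mouth and 1.57 to 1.74 CPM in WT mouth, with an interaction of 7.28 ± 1.68 (adjusted p = 0.0115) that was not called without both libraries that stood apart (adjusted p = 0.0699). Of the 8 tested genes for inflammatory cytokines and prostaglandin synthesis 3 had a higher interaction and 0 a lower one, against 5.01% and 8.1% of all genes, with a median of 2.44. The other 2 were CCL2, a monocyte chemokine (2.35 ± 0.47, adjusted p = 0.00283), and PTGES, a prostaglandin E synthase (3.24 ± 0.76, adjusted p = 0.00927). CCL2 was of the normal class with all libraries, with a tumour side of 1.08 ± 0.32 (adjusted p = 0.0787) and a normal side of -1.27 ± 0.35 (adjusted p = 0.012), and also without WT mouth replicate 1. For PTGES neither side was called on its own with all libraries. Without WT scrotum replicate 2 the tumour side alone was called for both genes.

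The immediate early and heat shock list, of genes that also respond to tissue handling, had 3 higher and 2 lower of 13 tested, against 5.01% and 8.1% of all genes, 2 of the tumour class and 3 of the normal class. The higher genes EGR1 and FOS, transcription factors switched on by growth signals, were of the tumour class. The transcription factor ATF3, induced by stress, was higher (3.90 ± 0.74, adjusted p = 0.00188), and EGR3, a relative of EGR1, was lower (-5.59 ± 1.21, adjusted p = 0.00796), both of the normal class. Without WT scrotum replicate 2 the interaction of EGR3 was -3.30 (adjusted p = 0.00292), and both of its sides were called. Without both libraries that stood apart EGR3 was of the tumour class. The other lower gene was BAG3. EGR1 had 326, 163 and 96.9 CPM in DIK scrotum, 13.8, 21.6 and 4.26 CPM in WT scrotum, 20.2, 27 and 36.5 CPM in DIK mouth and 8.53, 11.9 and 16 CPM in WT mouth. FOS had 549, 354 and 206 CPM in DIK scrotum, 0.839, 2.24 and 1.5 CPM in WT scrotum, 11.7, 12.9 and 22.4 CPM in DIK mouth and 0.966, 1.05 and 0.262 CPM in WT mouth. For each gene every DIK scrotum library was above all others. Interactions were 2.67 ± 0.78 (adjusted p = 0.0309) and 3.58 ± 0.99 (adjusted p = 0.0241), and the call was lost in 6 of the 12 fits that left out 1 library for EGR1 and in 5 for FOS, among them the fit without WT mouth replicate 1 (adjusted p = 0.0773). The part of tissue handling was not tested. In the RAS-ERK response list 2 of 19 genes had a higher and 1 a lower interaction, against 5.01% and 8.1% of all genes, a share called near the 13.1% over all genes. The list had 5 higher and 2 lower without WT scrotum replicate 2, and 3 of each without WT mouth replicate 1. The others called were CCND1, cyclin D1, and DUSP4, an ERK phosphatase, both of the normal class. CCND1 had 74.1, 74 and 39.4 CPM in DIK scrotum, 20.6, 43 and 26.8 CPM in WT scrotum, 48.1, 47.9 and 55.2 CPM in DIK mouth and 108, 103 and 86.3 CPM in WT mouth: it was higher in tumours at the scrotum label (1.05 ± 0.32, adjusted p = 0.0135) and lower in tumours at the mouth label (-0.98 ± 0.32, adjusted p = 0.017). DUSP4 was lower in tumours at the scrotum label alone (-2.29 ± 0.40), with an interaction of -2.11 ± 0.56, which was lost without DIK scrotum replicate 1 or DIK mouth replicate 3.

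Moist-type squamous genes were mostly called between the tumour groups, and few were called in the interaction by edgeR. In the oral mucosa and oesophageal type list, 8 of 9 tested genes were higher in DIK scrotum than in DIK mouth, against 1.83% of all genes, and 5 of 9 were higher in WT scrotum than in WT mouth, against 13.7%. In the interaction edgeR called 1 gene of 9, against 13.1% of all genes, and 3 without WT scrotum replicate 2. The list median was 1.97. At an unadjusted p under 0.05 there were 7 of the 9, against 26.4% of all genes, and DESeq2 called 5 and limma-voom 4. The list summed to 26704, 16178 and 24465 CPM in DIK scrotum, 326, 2722 and 753 CPM in WT scrotum, 2084, 2785 and 2064 CPM in DIK mouth and 164, 112 and 123 CPM in WT mouth. MAL, a raft protein of moist squamous epithelium, was the gene called by edgeR with all libraries. It had 439, 309 and 421 CPM in DIK scrotum, 3.36, 0.408 and 4.51 CPM in WT scrotum, 26.3, 40.3 and 26.1 CPM in DIK mouth and 2.25, 4.88 and 3.41 CPM in WT mouth. Its interaction was 4.05 ± 0.83 (adjusted p = 0.00353), from a tumour side of 3.65 ± 0.57 and a normal side of -0.40 ± 0.62. ADM, adrenomedullin, a peptide induced by low oxygen, was 168, 110.5 and 48.8 CPM in DIK scrotum and at most 17.1 CPM elsewhere, with an interaction of 3.26 ± 0.74. ALDH1A1, a retinal dehydrogenase, had 60.4, 32.9 and 68.8 CPM in DIK scrotum, 44.1, 7.34 and 38.1 CPM in WT scrotum, 1.27, 0.243 and 1.07 CPM in DIK mouth and 199, 13.1 and 8.39 CPM in WT mouth. The DIK mouth libraries were the lowest. Its interaction was 7.29 ± 1.61 with all libraries and 4.60 without WT mouth replicate 1, which held the highest value.

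Lower on the tumour side were CA4 and SOSTDC1. CA4, a membrane carbonic anhydrase, had 34.9, 32.5 and 35.6 CPM in DIK scrotum, 2.94, 25.3 and 2.01 CPM in WT scrotum, 355, 335 and 334 CPM in DIK mouth and 1.93, 1.22 and 4.46 CPM in WT mouth. The DIK mouth libraries were the highest, and its interaction of -5.40 ± 1.02 (adjusted p = 0.00286) was -3.31 (adjusted p = 0.00163) without WT scrotum replicate 2. SOSTDC1, an inhibitor of BMP and WNT signals, had -5.27 ± 1.24 and was not called without that library (adjusted p = 0.132).

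**Figure D4:**
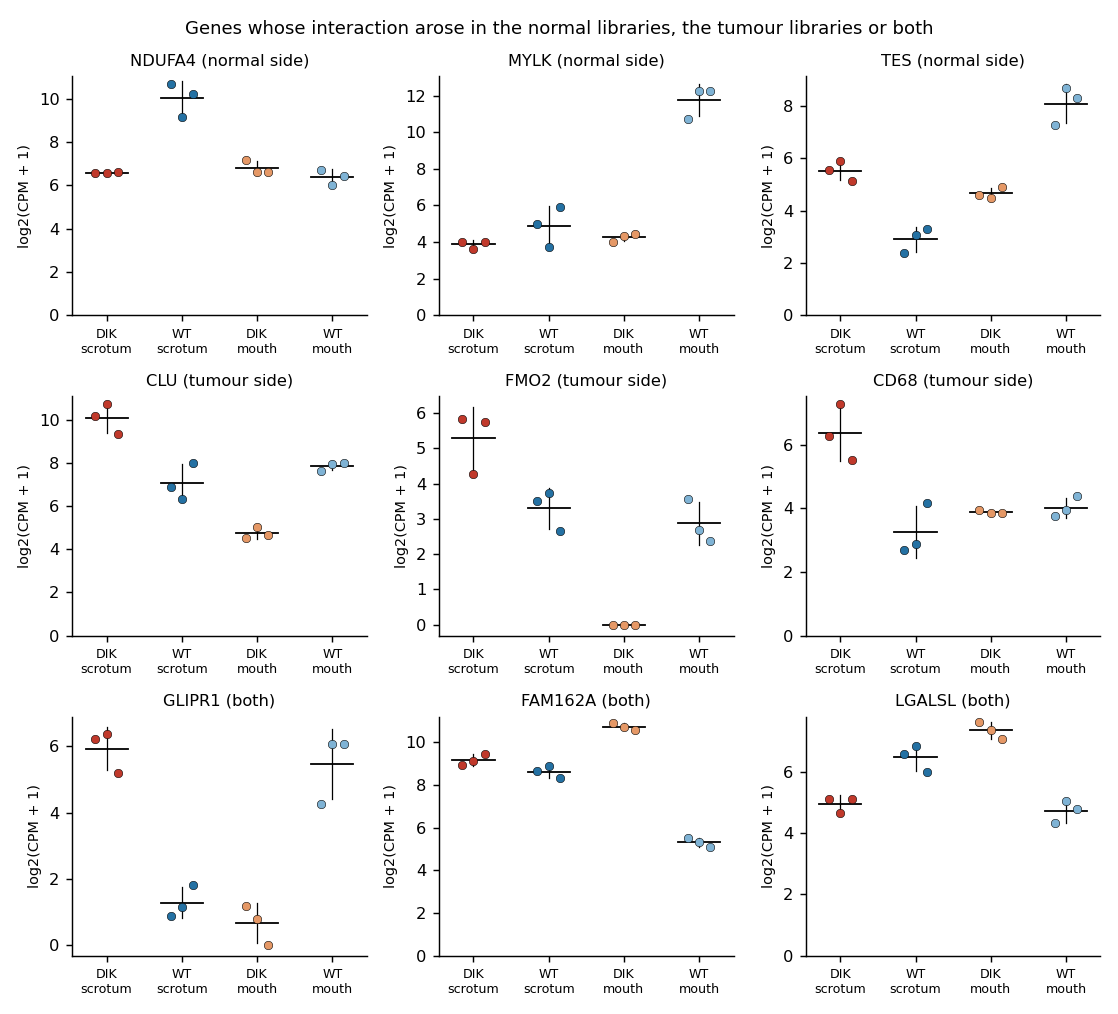
Points are libraries, bars the mean and lines 1 SD of log2(CPM + 1) for 9 genes in the 4 groups. In the top row only the normal side was called, and in the middle row only the tumour side was called. In the bottom row both sides were called, with opposite signs.

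In 43 genes both sides were called, and some of these crossed over. GLIPR1, a secreted cysteine-rich protein, had 73.8, 82.2 and 35.6 CPM in DIK scrotum, 0.839, 1.22 and 2.51 CPM in WT scrotum, 1.27, 0.729 and 0 CPM in DIK mouth and 18, 66.1 and 66.6 CPM in WT mouth. It was high in tumours at the scrotum label and in normal tissue at the mouth label, and near the floor in the other groups. The tumour effects were 5.32 ± 0.67 and -6.22 ± 0.75 at the scrotum and mouth labels, and the interaction was 11.53 (adjusted p = 6.38e-06). CPQ, a plasma carboxypeptidase, DPYSL3, a cytoskeletal protein of growing neurons, and IGFBP2, which binds insulin-like growth factors, were also higher, by 4.60 ± 0.65, 4.57 ± 0.72 and 4.32 ± 0.84. IGFBP2 was of the tumour class without WT mouth replicate 1, with a normal side of -1.84 (adjusted p = 0.0501).

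The sides had the reverse signs in FAM162A and LGALSL: DIK scrotum was below DIK mouth, and WT scrotum was above WT mouth. The estimated tumour effect changed sign between the labels for LGALSL and not for FAM162A. FAM162A, a mitochondrial protein induced by low oxygen, had 483, 567 and 698 CPM in DIK scrotum, 403, 469.9 and 322 CPM in WT scrotum, 1936, 1705 and 1514 CPM in DIK mouth and 45.1, 38.7 and 33.3 CPM in WT mouth. The DIK mouth libraries were the highest and the WT mouth libraries the lowest, with a tumour effect of 0.55 ± 0.29 (adjusted p = 0.134) at the scrotum label and 5.46 ± 0.35 at the mouth label. Its interaction was -4.91 ± 0.43 (adjusted p = 6.38e-06), and the normal side was the larger by the test of size. LGALSL, a galectin-like protein, had 33.3, 24 and 33.8 CPM in DIK scrotum, 94.8, 114 and 62.2 CPM in WT scrotum, 195, 163 and 131 CPM in DIK mouth and 18.8, 32.2 and 26.2 CPM in WT mouth. Tumours were lower than normal tissue at the scrotum label (-1.57 ± 0.31) and higher at the mouth label (2.66 ± 0.32), an interaction of -4.23 ± 0.44 (adjusted p = 1.28e-05). CRABP2, which binds retinoic acid in the cell, had -4.54 ± 0.69, and PLBD1, a phospholipase-like protein, -6.16 ± 0.84. Both stayed called without WT scrotum replicate 2, where the normal side was no longer called (0.91 and 1.05).

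A few of the named genes are used by glands, and each had a higher interaction with all libraries. The gland lists themselves held few calls: 1 of 13 tested salivary and mucous gland genes was higher and 0 lower, against 5.01% and 8.1% of all genes, and 0 of 4 sweat and sebaceous gland genes were called by edgeR, with 0 at an unadjusted p under 0.05, 0 by DESeq2 and 0 by limma-voom. CRISP3, a secretory protein of salivary and other glands, had 243, 235 and 122 CPM in DIK scrotum, 3.36, 2.04 and 1.25 CPM in WT scrotum, 5.38, 7.29 and 4 CPM in DIK mouth and 1248, 11.5 and 0.525 CPM in WT mouth. With all libraries the interaction was 12.76 ± 2.52 (adjusted p = 0.00502) and the normal side was called (-7.61 ± 1.89). Without WT mouth replicate 1 it was 6.77 (adjusted p = 0.000281), with a tumour side of 5.14 (adjusted p = 0.000367) and a normal side of -1.63, so that the gene moved to the tumour class. HSD3B1, an enzyme of steroid synthesis used in skin glands and gonads, moved in the same way, with 8.63 ± 1.83 and 5.65, on 2 counts in WT scrotum and 106 in WT mouth. ST6GALNAC1, which adds sialic acid to mucins, had 5.14 ± 1.36 and 3.83 and was called in both fits. KRT19, a keratin of ducts and glands, had 784, 1735 and 531 CPM in DIK scrotum, 37.8, 52.4 and 6.77 CPM in WT scrotum, 80.4, 105 and 119.7 CPM in DIK mouth and 1364, 7.84 and 5.77 CPM in WT mouth, and LCN2, lipocalin, an antibacterial protein of glands and neutrophils, had 329, 11.7 and 5.51 CPM in WT mouth. Interactions of these genes were 7.15 ± 2.13 and 5.99 ± 1.67 with all libraries, and 1.14 (adjusted p = 0.417) and 2.33 (adjusted p = 0.0645) without that library, so neither stayed called. The call of KRT19 was lost in 10 and that of LCN2 in 7 of the 12 fits that left out 1 library. The salivary and mucous gland list had 0 higher and 1 lower without WT mouth replicate 1.

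**Figure D5:**
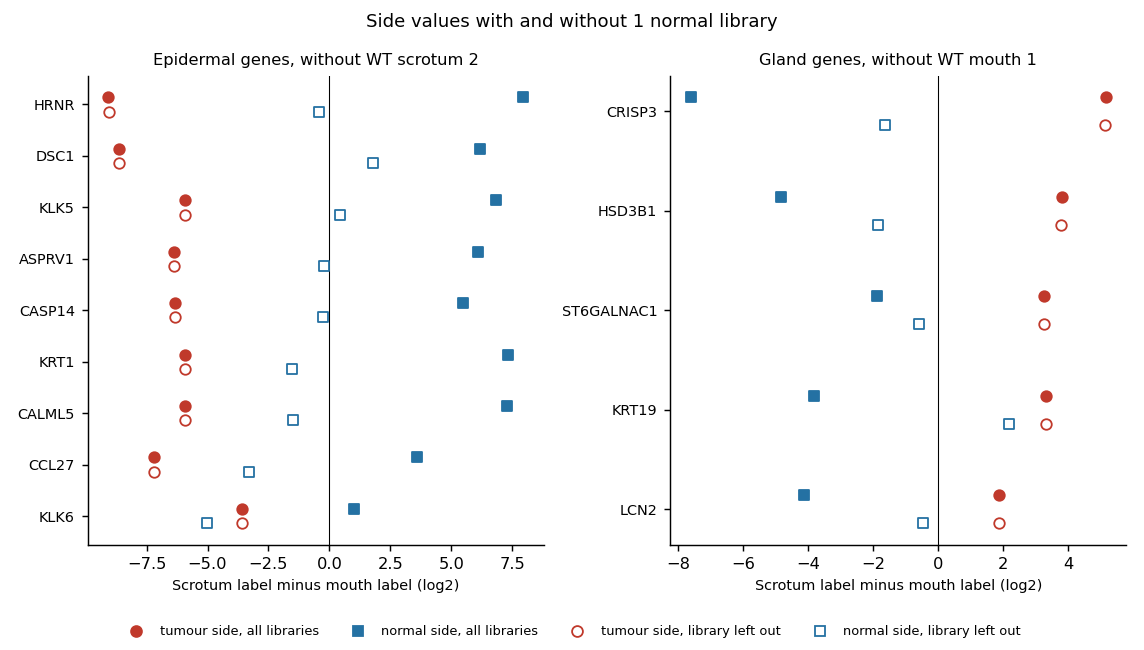
Circles give the tumour side and squares the normal side (scrotum label minus mouth label, log2), filled with all libraries and open without 1 normal library, for 9 epidermal genes (left, without WT scrotum 2) and 5 gland genes (right, without WT mouth 1). The circles nearly coincide, and the squares differ: the normal side of KRT1 is 7.34 with all libraries and -1.52 without WT scrotum 2, and that of CRISP3 is -7.61 and -1.63 without WT mouth 1.

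Cholesterol genes were called in both directions. In the lipid barrier and cholesterol list 4 of 12 tested genes had a higher and 1 a lower interaction, against 5.01% and 8.1% of all genes, all of the normal class. The list median of -0.19 turned to 1.05 without WT scrotum replicate 2 and to 0.71 without both libraries that stood apart. LSS, which closes the sterol ring, had 1.98 ± 0.47 (adjusted p = 0.00842) and INSIG1, which holds back the pathway when sterol is ample, 2.05 ± 0.46 (adjusted p = 0.00617). FDFT1, which makes squalene, had -1.79 ± 0.36 (adjusted p = 0.00286), with at least 27.3 CPM in every library of the DIK groups and of WT scrotum and 12.1 to 15.6 CPM in WT mouth. In the invasion list, 1 of 17 tested genes had a higher interaction and 1 a lower one, SERPINB2, against 5.01% and 8.1% of all genes, a share near that over all genes. The higher calls were 0 without WT scrotum replicate 2 and 3 without WT mouth replicate 1, with 1 lower in each. TIMP1, an inhibitor of matrix proteases, was the higher of them, with 894, 1132 and 623 CPM in DIK scrotum, 38.5 to 71.5 CPM in WT scrotum, 244 to 422 CPM in DIK mouth and 62.1 to 115 CPM in WT mouth. It was higher in tumours at both labels (4.03 ± 0.53 and 1.83 ± 0.49), and its interaction of 2.20 ± 0.68 (adjusted p = 0.0379) was not called without WT scrotum replicate 2 (adjusted p = 0.0709). No matrix metalloproteinase of the list was called. Among the fits that left out 1 library, the call was lost in 8 for TIMP1 and for KLK6, in 6 for DSC3 and for GJB6, and in 3 for ST6GALNAC1.

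Several lists had no call in the interaction by edgeR, where 13.1% of all genes were called and 26.4% had an unadjusted p under 0.05. Of 30 tested proliferation genes 0 were called, with 7 at an unadjusted p under 0.05, and DESeq2 and limma-voom called 1 each. EdgeR called 1 of them without WT scrotum replicate 2, as it did of the ribosome biogenesis genes given below. The summed level was 603 to 725 CPM in DIK scrotum, 63.5 to 138 CPM in WT scrotum, 389 to 543 CPM in DIK mouth and 45.1 to 78.7 CPM in WT mouth, so that tumours were above normal tissue at both labels. Of 13 EGF family ligands and ERBB receptors 0 were called (2 unadjusted, 0 by DESeq2 and 3 by limma-voom). Of 23 interferon response genes 0 were called (3 unadjusted, 0 by either other tool), of 20 genes of MHC and antigen presentation 0 (5 unadjusted, 0 by either other tool), of 16 endothelial genes 0 (3 unadjusted, 0 by DESeq2 and 2 by limma-voom), and of 18 ribosome biogenesis genes 0 (3 unadjusted, 2 by each other tool). Without WT mouth replicate 1 edgeR called 1 gene each of the EGF family, endothelial and ribosome biogenesis lists. A missed threshold does not show that the tumour effects at the labels were alike.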

How the data were processed

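Messenger RNA was measured in 18 pig libraries, and 12 of them enter the comparison. RNA of tissue stored in RNAlater was isolated with TRIzol and made into libraries with a VAHTS mRNA-seq V3 kit, per the labels. The authors deposited raw read counts per gene, for which the submitters' processing notes list HTSeq 0.11.2, HISAT2 2.1.0 and fastp. No source used here states the annotation, genome build, strandedness or handling of multiply matching reads, so values of antisense genes and of near-identical families such as actins and keratins are uncertain. Gene symbols are those of the table, of which 26838 matched RefSeq names.

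Counts were fitted in R 4.3.3 with edgeR 4.0.16 (TMM scaling, a low-count filter with a minimum count of 10 and a minimum total of 15, quasi-likelihood test). The prior count of the fit was the edgeR default. All 18 libraries shared 1 estimate of the spread, and p-values were adjusted by Benjamini-Hochberg over all 12895 genes for each contrast, at a threshold of 0.05. Each SE was calculated back from the log2 value and the F statistic of its test, and is approximate, above all where a group is near 0 counts. DESeq2 1.42.0, limma 3.58.1, other scalings, filters and left-out libraries were alternatives. The fits were checked on simulated data, in which only DIK scrotum differed from the other groups. That check covers no difference between the normal groups and no library that stands apart. CPM were computed from the counts and TMM library sizes, and intervals and floors cover counting error only.

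Named genes came from a rule: the 10 largest interactions in each direction, the 5 largest in each class and direction, up to 4 called members of each of 41 gene lists, the posterior HOX genes and up to 5 genes in each direction with a group at 3 or fewer counts. The text names a subset chosen after the values were seen. The comparison, its members and the lists were chosen with earlier results of these data known. Some genes that the rule picks are not reported here.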

Additional observations from a re-analysis of the deposited data

Results flagged for a closer look

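The tumour effect differed between the scrotum and mouth labels, by the edgeR test of the interaction itself, for 1690 genes. The named genes among them were picked out by the same test, and their log2 interactions follow by group. Among skeletal muscle and mitochondrial genes and others high in WT scrotum the interaction was -10.14 for TNNI2, -7.52 for TTN, -6.22 for CASQ1, -5.57 for ENO3, -4.00 for NDUFA4, -4.33 for COX7A1, -2.97 for NDUFV1, -4.07 for TBX15, -1.94 for BAG3 and -2.31 for PRRX1. Among sugar and fat metabolism the interaction was -6.76 for GPD1, -5.07 for CD36, -2.64 for PNPLA2, -5.74 for HK2, -2.39 for GAPDH and -3.44 for EGLN3. Among smooth muscle, matrix and other genes of the normal class the interaction was 6.40 for MYLK, 6.05 for MYL9, 4.91 for TAGLN, 3.68 for SMTN, 6.34 for TES, 4.40 for TNC, 3.46 for MFAP4, 2.49 for POSTN, 1.20 for COL12A1 and 9.14 for GPR20. Among epidermal keratins and late differentiation the interaction was -13.27 for KRT1, -9.50 for KRT10, -10.31 for KRT2, -13.18 for KRT77, -13.22 for CALML5, -12.46 for ASPRV1, -12.77 for KLK5, -4.60 for KLK6, -10.17 for KLK7, -11.23 for KLK8, -11.81 for CASP14, -14.81 for DSC1, -17.01 for HRNR and -10.81 for CCL27. Among other epithelial and pigment genes the interaction was -6.26 for DSC3, -5.03 for TP63, -5.57 for GJB6, -7.52 for SERPINB2, -6.51 for FOXN1, -9.81 for PMEL and -13.74 for TYRP1. Among genes of the tumour class the interaction was 6.14 for CLU, 8.92 for C8H4orf26, 7.28 for CXCL2, 5.65 for FCMR, 7.29 for ALDH1A1, 9.84 for FMO2, 4.05 for MAL, 3.40 for CD68, 2.67 for EGR1, 3.58 for FOS, 3.26 for ADM, -5.40 for CA4 and -5.27 for SOSTDC1. Among genes called on both sides the interaction was 11.53 for GLIPR1, 4.60 for CPQ, 4.57 for DPYSL3, 4.32 for IGFBP2, -4.91 for FAM162A, -4.23 for LGALSL, -4.54 for CRABP2 and -6.16 for PLBD1. Among gland genes the interaction was 12.76 for CRISP3, 5.99 for LCN2, 7.15 for KRT19, 8.63 for HSD3B1 and 5.14 for ST6GALNAC1. Among signalling, inflammation and cholesterol the interaction was 2.03 for CCND1, -2.11 for DUSP4, 3.90 for ATF3, -5.59 for EGR3, 3.24 for PTGES, 2.20 for TIMP1, 2.35 for CCL2, 1.98 for LSS, 2.05 for INSIG1 and -1.79 for FDFT1. The epidermal values depend on WT scrotum replicate 2 and the gland values on WT mouth replicate 1, and the fitted values of GPR20, DSC1, HRNR, FMO2, KRT77, HSD3B1, CD36, FOXN1, TBX15 and TYRP1 rest on a group with 3 or fewer counts.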

How the results depend on the processing

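Of the 84 named genes that were tested, 83 were called, 63 of them in every fit that left out 1 library and 54 under every alternative run. KLK6 was the only one to change sign, ranging from -5.20 to 1.45 over the fits that left out 1 library, at 1.45 without WT scrotum replicate 2 and 1.69 without that library and WT mouth replicate 1 together. In the fits without WT scrotum replicate 2 its WT scrotum group was at 0 counts. Scaling by library size alone left 131 genes with neither side called and gave 48.5% higher calls in place of 38.2%, with a median over all genes of 0.09. DESeq2 called 96 genes on both sides. With limma-voom 2537 genes were called, 1080 of them higher, 1330 on the tumour side, 420 in the tumour class and 173 on both sides, and the tumour side was the larger for 160 and the normal side for 1190. At an adjusted p under 0.01 there were 733 calls, 264 higher and 469 lower, with 167 on the tumour side and 1693 on the normal side, 56, 563, 7 and 107 in the tumour, normal, both and neither classes, and 18 with the tumour side and 277 with the normal side larger. Without both libraries that stood apart, 1002 were higher, 1060 were called on the tumour side, 299 were in the tumour class and 140 on both sides, and the tumour side was larger for 119 and the normal side for 925. The causes of these moves were not tested, other than the stricter threshold.

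Leaving out 1 library at a time gave 1144 to 2036 calls, 441 to 792 higher and 703 to 1256 lower, 181 to 742 on the tumour side and 2077 to 3161 on the normal side. The classes held 76 to 263 tumour, 863 to 1559 normal, 13 to 106 both and 132 to 258 neither, and the tumour side was larger for 42 to 114 and the normal side for 396 to 798. DIK minus WT was called for 4445 to 6500 genes at the scrotum label and 5048 to 6545 at the mouth label. With the replicate block 1608 genes were called. The replicate numbers do not pair the samples: 3 of 18 pairs with the same number had a correlation of deviations over 0.1, in a range of -0.224 to 0.152. Depth limits the rarest transcripts: 196 called genes have a group with 3 or fewer counts, and 59 have a group at 0.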
